A study of Homo sapiens with 2 samples.

Results

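The miR-15/16 family with miR-503 comprised 7 microRNAs (miRNAs) on the card, miR-15a, miR-15b, miR-16, miR-195, miR-424, miR-497 and miR-503, chosen by the names of their assays among 365 miRNA assays. Each name stood on 1 assay number. The study compared CL1-5 cells stably expressing ANGPTL1, a secreted angiopoietin-like protein, with CL1-5 cells carrying the empty vector pcDNA3.1. CL1-5 is a highly invasive human lung adenocarcinoma line, and both lines had been selected with the antibiotic G418 for 4 weeks. Whether either line was a single clone or a pool is not given in the sources used here. There was 1 RNA sample of each line, so no difference below has a replicate check, and each compares these 2 samples rather than the conditions in general.

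MiRNAs are short RNAs that pair with messenger RNAs, mainly through the seed, bases 2 to 8 of the mature strand, and lower the output of those messages. The miR-15/16 family is known as a brake on the cell cycle: its members repress the cyclins CCND1 and CCNE1 and the kinase CDK6, and miR-15a and miR-16 also repress the survival factor BCL2. The 15a/16-1 locus is known as a tumour suppressor lost in chronic lymphocytic leukaemia. miR-503 lies beside miR-424, and in mouse, where miR-424 is called miR-322, both are known to be induced when muscle precursors leave the cell cycle.

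The sequences of the 7 mature strands show why these miRNAs are grouped. All 7 names were matched to the RefSeq annotation of GRCh38.p14, taking the strand from the 5′ arm of each hairpin. The assays' names do not state the arm. The seed is in capitals, 5′ to 3′:
miR-15a: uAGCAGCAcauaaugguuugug
miR-15b: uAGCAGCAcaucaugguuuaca
miR-16: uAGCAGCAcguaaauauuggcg
miR-195: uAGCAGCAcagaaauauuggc
miR-424: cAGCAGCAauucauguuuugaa
miR-497: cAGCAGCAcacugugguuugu
miR-503: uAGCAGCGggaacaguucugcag
The seed AGCAGCA was common to 6 members, and miR-503 differed from them in the last seed base. In a message, the stretch that pairs with the seed is UGCUGCU for the 6 and CGCUGCU for miR-503. Of 2370 mature miRNAs in the annotation, 7 carried the seed AGCAGCA and 1, miR-503, the seed AGCAGCG.

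Over their whole length the members differed more. Compared base by base from the 5′ end, seed included, miR-16 and miR-195 were the closest pair, with 19 of 21 bases the same. miR-15a and miR-15b shared 18 of 22 bases. miR-497 and miR-503 were the least alike of the 21 pairs, with 10 of 21 bases the same. After base 8 this pair shared 4 of 13 bases, as did miR-16 and miR-497, and miR-195 and miR-424. The last 6 bases differed among all 7 members, in part through length. miR-195 (21 bases) ends as miR-16 (22 bases) does without its last base. Likewise miR-497 (21 bases) ends as miR-15a (22 bases) does without its last base. The reverse transcription primers of such stem-loop assays pair with the 3′ end of a miRNA, and whether these assays also read related members was not tested.

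The members come from 8 hairpins at 4 loci, given here with GRCh38.p14 coordinates. MIR15A (chr13:50049119-50049201, minus strand) and MIR16-1 (chr13:50048973-50049061, minus strand) lie within the long non-coding RNA gene DLEU2, 57 bases apart. MIR15B (chr3:160404588-160404685, plus strand) and MIR16-2 (chr3:160404745-160404825, plus strand) lie within SMC4, which encodes a condensin subunit, and within the readthrough gene TRIM59-IFT80, 59 bases apart. MIR195 (chr17:7017615-7017701, minus strand) and MIR497 (chr17:7017911-7018022, minus strand) lie within their host gene MIR497HG, 209 bases apart. MIR503 (chrX:134546328-134546398, minus strand) lies within MIR503HG, and MIR424 (chrX:134546614-134546711, minus strand) crosses an end of that gene, 215 bases away. Both MIR16-1 and MIR16-2 give the same mature miR-16, so its value cannot be divided between chromosomes 13 and 3.

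Abundance was read as the threshold cycle (Ct), the cycle of the PCR at which the signal passes a fixed threshold. A Ct that is 1 cycle earlier stands for about 2 times the template, if each cycle doubles it. A miRNA counted as detected below cycle 35, and the run ended at cycle 40. All 7 members were detected in both samples, as were 145 of the 365 miRNAs. RNU48, the small nucleolar RNA used as endogenous control, stood at cycle 21.21 in ANGPTL1 cells and 20.79 in control cells. Of the epithelial markers miR-200c was detected, at cycle 30.77 in ANGPTL1 cells and 32.16 in control cells, while the other 5 measured (miR-141, miR-200a, miR-200b, miR-205 and miR-429) were at cycle 35 or later in both samples. The fibroblast or smooth muscle markers (3) and the liver marker were at cycle 35 or later in both samples, and of 4 muscle markers miR-133b alone was detected.

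The family spanned 12.4 cycles in ANGPTL1 cells and 13.47 cycles in control cells, with miR-16 at the abundant end. miR-16, the member common to both loci of the 15/16 clusters, crossed threshold at cycle 22.26 in ANGPTL1 cells and 21.48 in control cells. It was the fifth most abundant detected miRNA in ANGPTL1 cells and the third in control cells, by Ct. miR-15b, which is cut from the SMC4 intron cluster, stood at cycle 24.49 in ANGPTL1 cells and 24.39 in control cells, rank 16 of 145 in both. Ranks and ratios between different assays assume that the assays amplify equally well, which was not tested.

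The other 5 members were scarce. miR-15a, the partner of miR-16 on chromosome 13, stood at cycle 30.52 in ANGPTL1 cells and 29.31 in control cells. miR-195, the member most like miR-16 in sequence, stood at 29.74 in ANGPTL1 cells and 29.41 in control cells. miR-195 was thus the earlier of the pair by 0.78 cycles in ANGPTL1 cells, and miR-15a by 0.10 cycles in control cells. This was the only 1 of the 21 pairs of members whose order differed between the samples.

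miR-424, known to be induced by low oxygen in endothelial cells, stood at cycle 32.15 in ANGPTL1 cells and 31.21 in control cells. miR-497, the partner of miR-195, stood at 33.38 in ANGPTL1 cells and 33.48 in control cells. miR-503 stood at 34.66 in ANGPTL1 cells and 34.95 in control cells, which was 0.34 and 0.05 cycles under the detection limit. In control cells miR-503 was the latest of the 145 miRNAs detected in both samples, so its ratio rests on the least template in the family.

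**Figure D1:**
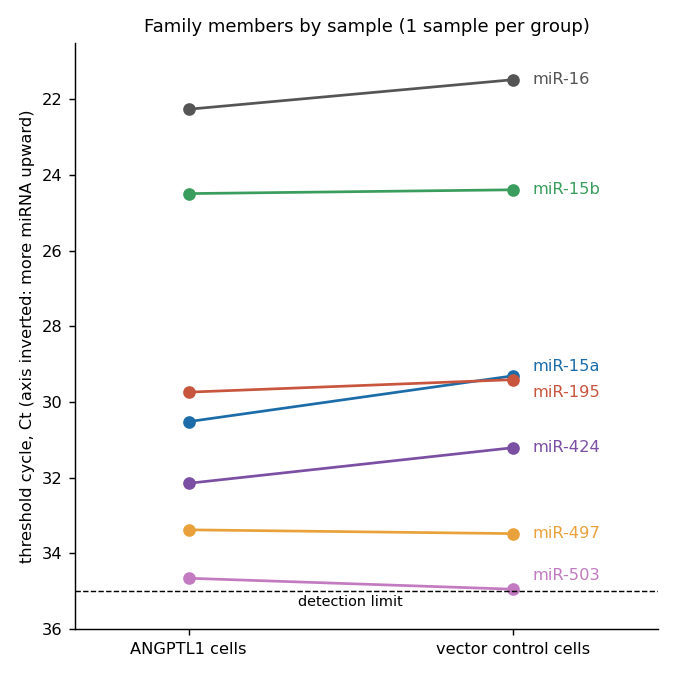
Threshold cycle of each family member in ANGPTL1 cells (left) and vector control cells (right), 1 sample each, on an inverted axis so that more abundant miRNAs are higher; the dashed line is the detection limit of 35 cycles. miR-16 and miR-15b stand apart from the other 5 members in both samples, and the lines of miR-15a and miR-195 cross.

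On a linear scale miR-16 made up most of the family. Its level was 48.3% of that of RNU48 in ANGPTL1 cells and 62.0% in control cells, computed as 2 to the power of minus delta Ct, where delta Ct is the Ct of the miRNA minus that of RNU48. The levels of the 7 members summed to 59.1% of RNU48 in ANGPTL1 cells and 70.9% in control cells, a 1.20-fold lower sum in ANGPTL1 cells. miR-16 accounted for 81.7% of that sum in ANGPTL1 cells and 87.5% in control cells. miR-15b accounted for 17.4% in ANGPTL1 cells and 11.6% in control cells, and the other 5 members together for 0.863% and 0.875%. Without miR-16 the sum was 10.8% of RNU48 in ANGPTL1 cells and 8.87% in control cells, 1.22-fold higher in ANGPTL1 cells. Without normalization, an alternative added after seeing the data, the log2 ratio of the sum was -0.68 with miR-16 and -0.13 without it, so the higher sum without miR-16 holds only relative to RNU48.

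The comparison of ANGPTL1 cells with control cells asked whether ANGPTL1 changes the level of these miRNAs. The log2 ratio was the delta Ct of control cells less that of ANGPTL1 cells, and is positive where ANGPTL1 cells held more of the miRNA per RNU48. No member differed by 2-fold or more (0 of 7), where 12.4% of the 145 detected miRNAs did, 7.59% on the higher side and 4.83% on the lower side. The members lay on both sides of 0, with 4 above and 3 below, beside 49.7% of all detected miRNAs above and 50.3% below. The median log2 ratio of the 7 was 0.09, against -0.01 over the 145. At 1.5-fold, 1 member was higher and 1 was lower, beside 16.6% and 19.3% of the detected miRNAs. The counts in the family were thus near those shares or below them.

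miR-15a was the lowest member, with a delta Ct of 9.31 in ANGPTL1 cells and 8.52 in control cells, a log2 ratio of -0.79 or 1.73-fold lower in ANGPTL1 cells. It ranked twelfth from the lowest of the 145 detected miRNAs. Among the 31 other miRNAs detected in both samples with a mean Ct within 1 cycle of its own, 2 had a ratio as low or lower. The middle 50% of those 31 ratios ran from -0.34 to 0.31. Here and below, the miRNAs within 1 cycle of a member are those detected in both samples. miR-424 had a delta Ct of 10.93 in ANGPTL1 cells and 10.42 in control cells, a log2 ratio of -0.51. Of 24 other miRNAs within 1 cycle of it, 5 were as low or lower.

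miR-16 had a delta Ct of 1.05 in ANGPTL1 cells and 0.69 in control cells, a log2 ratio of -0.36 or 1.28-fold lower in ANGPTL1 cells. Of the 7 other miRNAs within 1 cycle of it, 1 was as low or lower. miR-16 is also known to be abundant in red blood cells. Of the 5 blood cell markers measured, miR-486 was detected in both samples and was 12.0-fold lower in ANGPTL1 cells, at cycle 32.75 there and 28.75 in control cells. miR-142-3p was detected in control cells alone, at 34.51, and the red cell miRNA miR-451 stood at 36.83 in ANGPTL1 cells and 38.50 in control cells, beyond the limit in both. miR-223 and miR-142-5p were at cycle 35 or later in both samples. The detected blood markers summed to 0.0336% of RNU48 in ANGPTL1 cells and 0.409% in control cells, and their part in the ratio of miR-16 was not tested. In a bulk RNA sample, fewer cells expressing a miRNA and less of it per cell cannot be told apart.

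The members on the higher side were mostly scarce. miR-503 had a delta Ct of 13.45 in ANGPTL1 cells and 14.16 in control cells, a log2 ratio of 0.71 or 1.64-fold higher in ANGPTL1 cells. Of 8 other miRNAs within 1 cycle of it, 1 was as high or higher, and the 8 ran from -0.85 to 1.13. The detection limit left out miRNAs of like mean Ct that passed cycle 35 in a sample. Some had higher ratios, such as miR-137 (3.06), and some lower, such as miR-449b (-0.84). The count and range are thus bounded by the limit and do not place miR-503 among all miRNAs of its level. miR-497 had a delta Ct of 12.17 in ANGPTL1 cells and 12.69 in control cells, a log2 ratio of 0.52. Of 22 other miRNAs within 1 cycle of it, 6 were as high or higher. Here too the limit left out miRNAs of like mean Ct, such as miR-181b (4.24) above miR-497 and miR-95 (-3.35) below it. In raw cycles as well, miR-503 and miR-497 were earlier in ANGPTL1 cells, by 0.29 for miR-503 and 0.10 for miR-497.

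miR-15b, the abundant member on the higher side, had a delta Ct of 3.28 in ANGPTL1 cells and 3.60 in control cells, a log2 ratio of 0.32. Of 9 other miRNAs within 1 cycle of it, 2 were as high or higher. miR-195 had a delta Ct of 8.53 in ANGPTL1 cells and 8.62 in control cells, a log2 ratio of 0.09, the smallest difference in the family. Both stood above 0 through the reference: their raw cycles were later in ANGPTL1 cells, by 0.10 for miR-15b and 0.33 for miR-195. RNU48 itself was 0.42 cycles later there.

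**Figure D2:**
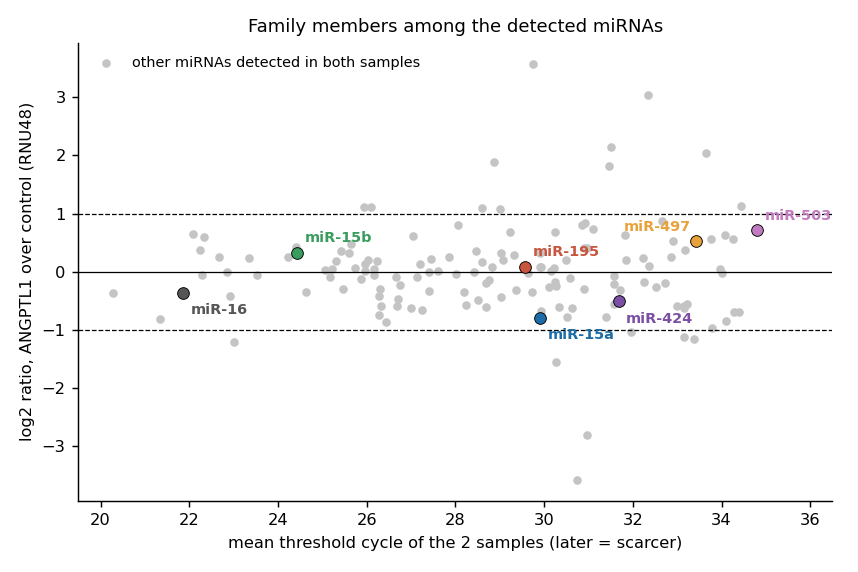
Log2 ratio of ANGPTL1 over control cells relative to RNU48 (vertical axis) against the mean threshold cycle of the 2 samples (horizontal axis) for the 145 miRNAs detected in both; coloured points are the 7 family members, grey points the others, and dashed lines mark 2-fold. All 7 members lie between the dashed lines, from -0.79 (miR-15a) to 0.71 (miR-503).

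The directions of miR-15b and miR-195 changed with the reference. Without normalization, 5 of 7 members were later in ANGPTL1 cells, beside 79.3% of all detected miRNAs. The log2 ratio was then -1.21 for miR-15a, past 2-fold, and -0.94 for miR-424 and -0.78 for miR-16, while miR-15b stood at -0.10 and miR-195 at -0.33. miR-497 (0.10) and miR-503 (0.29) stayed above 0. miR-16 is itself often used as a reference in miRNA assays. With miR-16 as the reference, 4 of the other members were above 0, and miR-503 reached 1.07, or 2.10-fold higher in ANGPTL1 cells. miR-497 stood at 0.88, miR-15b at 0.68, miR-195 at 0.45, miR-424 at -0.15 and miR-15a at -0.43. Thus miR-15a and miR-424 were below 0, and miR-497 and miR-503 above 0, under all 4 settings tried (RNU48, no normalization, the median of the detected miRNAs, and miR-16).

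**Figure D3:**
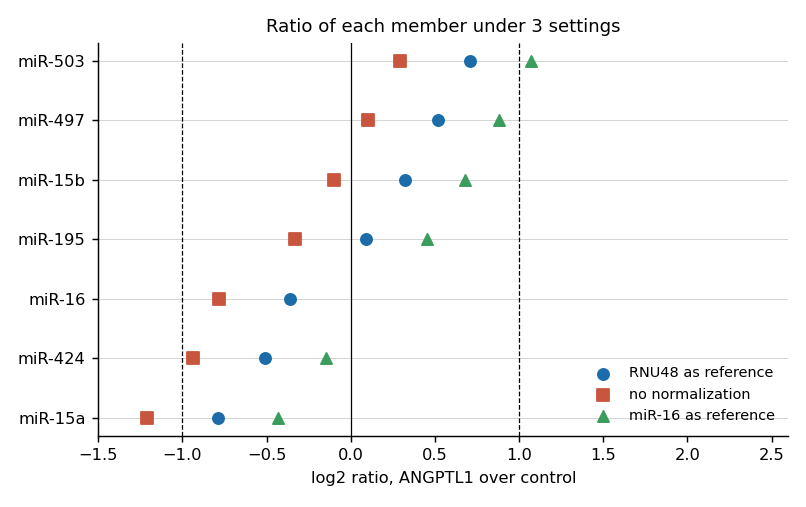
Log2 ratio of ANGPTL1 over control cells for each member with RNU48 as the reference (circles), without normalization (squares) and with miR-16 as the reference (triangles, not defined for miR-16 itself); dashed lines mark 2-fold. The reference shifts all members together, so their order does not change, and miR-15b and miR-195 are the members with values on both sides of 0.

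Differences between members do not depend on the reference, since RNU48 cancels. From miR-15a (-0.79) to miR-503 (0.71) the log2 ratios of the family spanned a 2.83-fold difference. Partners from 1 locus are usually cut from 1 primary transcript. The log2 ratios of partners differed by 0.43 to 1.22 over the 4 loci. With 1 sample per line, the measurement error of such a difference is unknown. At the 15a/16-1 locus, miR-15a was 8.26 cycles later than miR-16 in ANGPTL1 cells and 7.83 cycles later in control cells, so the log2 ratio of miR-15a was 0.43 below that of miR-16. At the 15b/16-2 locus, miR-15b was 2.23 cycles later than miR-16 in ANGPTL1 cells and 2.91 cycles later in control cells, and its log2 ratio was 0.68 above that of miR-16. The value of miR-16 is shared between these loci, so the 2 differences are not independent.

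Between the clusters, miR-15b and miR-15a, which share a seed and differ at 4 of 22 bases, were 6.03 cycles apart in ANGPTL1 cells and 4.92 cycles apart in control cells. On a linear scale this was 65.3-fold more miR-15b in ANGPTL1 cells and 30.3-fold more in control cells, if both assays amplify equally well. Their log2 ratios differed by 1.11, or 2.16-fold, with miR-15b on the higher side and miR-15a on the lower side.

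At the locus of miR-195 and miR-497, miR-497 was 3.64 cycles later than miR-195 in ANGPTL1 cells and 4.07 cycles later in control cells, and the log2 ratio of miR-497 was 0.43 above that of miR-195. At the locus of miR-424 and miR-503, miR-503 was 2.51 cycles later than miR-424 in ANGPTL1 cells and 3.74 cycles later in control cells. The log2 ratio of miR-424 was 1.22 below that of miR-503, 2.33-fold, which was the widest difference among the 4 loci. The hairpins of this last pair are shown because its partners had the widest difference in ratio, with the mature strand in capitals:
MIR424: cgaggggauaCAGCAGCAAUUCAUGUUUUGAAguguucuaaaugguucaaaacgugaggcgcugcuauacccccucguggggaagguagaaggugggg
MIR503: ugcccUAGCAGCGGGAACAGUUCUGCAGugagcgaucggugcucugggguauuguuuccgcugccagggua
miR-503 was within 0.05 cycles of the detection limit in control cells, and the error of a Ct this late cannot be had from 1 sample.

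**Figure D4:**
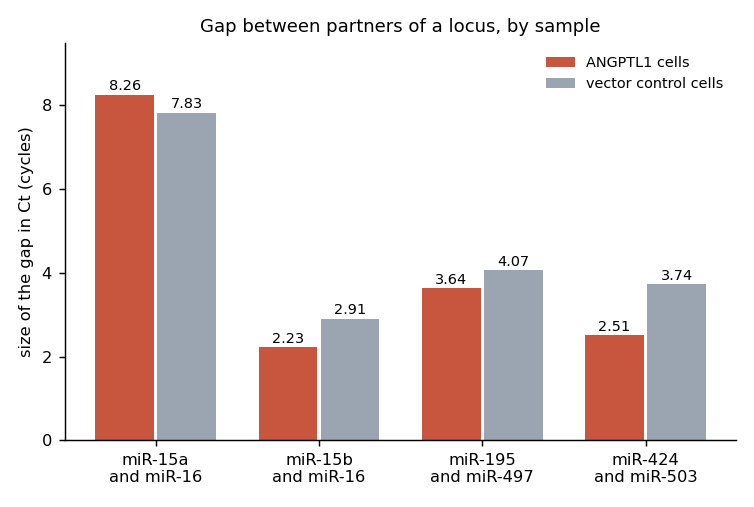
Size of the gap in threshold cycle between the 2 partners of each locus in ANGPTL1 cells (left bars) and vector control cells (right bars), 1 sample each; miR-15a, miR-15b, miR-497 and miR-503 were the later partners. The gap is wider in ANGPTL1 cells for miR-15a and miR-16 (8.26 against 7.83) and narrower for the other 3 pairs.

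The miRNAs whose levels were nearest to those of miR-16, by the Euclidean distance of delta Ct over the 2 samples, were miR-92 (0.617 cycles), miR-24 (0.740) and miR-100 (0.776), with log2 ratios of -0.06, 0.37 and 0.65. Those nearest to miR-15a were miR-501 (0.0860 cycles), miR-196b (0.402) and miR-29c (0.457). miR-501 had a delta Ct of 9.26 in ANGPTL1 cells and 8.59 in control cells, a log2 ratio of -0.67. With 2 samples, this likeness is one of level and of a single difference.

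The hexamer AGCAGC, which the 7 members carry at bases 2 to 7, also lies near the 5′ end of 3 further miRNAs on the card. They are shown with the hexamer in capitals:
miR-103: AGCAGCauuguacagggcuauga
miR-107: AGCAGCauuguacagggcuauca
miR-646: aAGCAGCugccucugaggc
In miR-103 and miR-107, from PANK gene introns, it lies at bases 1 to 6, which moves the seed by 1 base, and in miR-646 at bases 2 to 7. miR-103 stood at cycle 25.91 in ANGPTL1 cells and 25.55 in control cells, a log2 ratio of 0.06. miR-107 stood at 32.70 in ANGPTL1 cells and 31.24 in control cells, a log2 ratio of -1.04, lower than any member of the family. miR-646 was not detected in either sample, at cycle 40 in ANGPTL1 cells and 35.74 in control cells. Of the 2 detected relatives, miR-107 was past 2-fold and miR-103 was not, beside 12.4% of all detected miRNAs.

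Other miRNAs of the cell cycle were set beside the family. A list of 22 miRNAs known to repress cyclins or their kinases had 20 names measured, and let-7i and miR-29b were not analysed here. Of these, 14 were detected in both samples, with 3 at least 2-fold higher in ANGPTL1 cells, 0 lower and 11 within 2-fold, beside 7.59% higher and 4.83% lower of all 145 detected miRNAs. Their median log2 ratio was 0.25 relative to RNU48 and -0.17 without normalization. The count at least 2-fold higher was 2 without normalization, where let-7c was no longer past 2-fold, 1 with a detection limit of 32 and 5 with a limit of 38. The shares over all detected miRNAs were not computed for these alternatives. Among those called, let-7c (34.08 in ANGPTL1 cells and 34.79 in control cells) and miR-34c (32.85 and 34.46) were late. The 4 largest were miR-34c (2.04), which p53 induces, and let-7b (1.88), let-7c (1.13) and let-7d (0.80), of the family that represses CDK6 and CDC25A. miR-137 (cycle 33.11 in ANGPTL1 cells and 35.74 in control cells), miR-193b (33.70 and 35.18) and miR-34b (33.96 and 40) were detected in ANGPTL1 cells alone. With the later cycle set to 35 they were at least 4.96-fold, 3.29-fold and 2.75-fold higher. For miR-449b (35.21 and 33.95), detected only in control cells, the level in ANGPTL1 cells was at least 1.55-fold lower. These readings were all late and have no replicate check. Of all 365 miRNAs, 158 were detected in ANGPTL1 cells, 157 in control cells and 145 in both, so detection in 1 sample alone was about as common either way. miR-124a and miR-206 stood at cycle 40 in both samples.

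A list of 11 miRNAs known to repress inhibitors of the cyclin-dependent kinases, such as p21, p27 and p57, had 10 names measured, and miR-106a was not analysed here. All 10 were detected in both samples, with 0 at least 2-fold higher, 1 lower and 9 within 2-fold, beside the same 7.59% higher and 4.83% lower of all detected miRNAs, and a median log2 ratio of -0.03. The 4 largest differences were those of miR-93 (-1.20) and miR-25 (-0.62), which share a cluster in MCM7, miR-32 (0.40) and miR-222 (-0.36). The family's median was 0.09, and -0.14 with a detection limit of 32 or with miR-15b, miR-497 or miR-503 left out, so its place beside the lists was not fixed. Whether the 3 medians differ could not be tested with 1 sample per group.

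**Figure D5:**
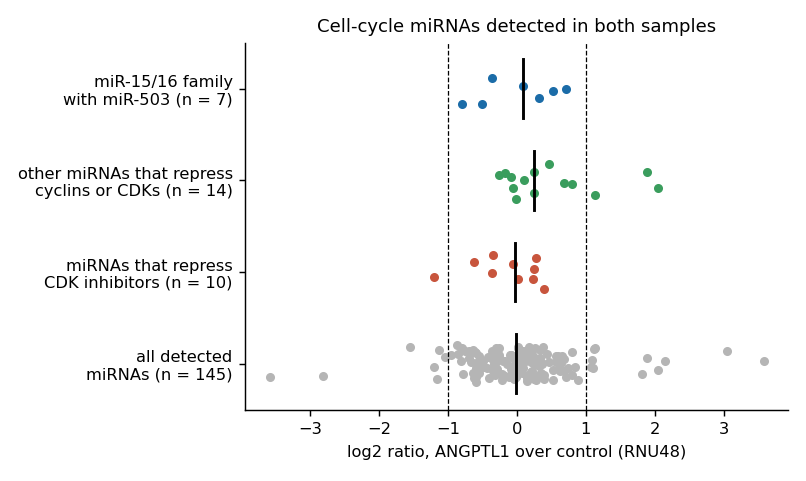
Log2 ratio of ANGPTL1 over control cells relative to RNU48 for the 7 family members, 14 other miRNAs that repress cyclins or CDKs, 10 miRNAs that repress CDK inhibitors and all 145 detected miRNAs; points are miRNAs, with random vertical spread, vertical bars are medians and dashed lines mark 2-fold. No family member is past 2-fold, while 3 of the other cyclin or CDK repressors and 1 repressor of CDK inhibitors are.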

How the data were processed

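MiRNAs were measured by quantitative PCR from 500 ng of total RNA on a TaqMan array card (panel version 1.0, 40 cycles), per the labels' protocols. The authors deposited average Ct values, delta Ct values relative to RNU48 and a fold change (ratio of ANGPTL1 over control cells), per the file headers. What wells were averaged, with which threshold and program, is not given in the sources used here. Deposited delta Ct and the cycles less those of RNU48 differed by no more than 0.01, and the authors' deposited fold change equalled the log2 ratio used here within 1.8e-07. Groups came from the treatment labels. Sequences and coordinates are RefSeq's (GRCh38.p14).

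Detection meant a Ct below 35, and a difference counted from 2-fold. With 1 sample per group no test was possible, and the depth behind a Ct is unknown. Python 3.11.15 and pandas 2.3.3 were used, and the ratio was tested on simulated cycles with known changes. Alternatives were the reference, the detection limit, the fold threshold and leaving out each member. Named were all members, the 4 largest differences and the miRNAs detected in 1 sample of each cell-cycle list, the AGCAGC miRNAs, and the 3 miRNAs nearest to miR-16 and to miR-15a. MiRNA members and lists were chosen with earlier results of these data known.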

Additional observations from a re-analysis of the deposited data

How the results depend on the processing

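Without normalization every ratio was lower by about 0.42: 1 member was past 2-fold and 5 were below 0, the family's median was -0.33, miR-15b stood at -0.10 and miR-195 at -0.33, the cyclin and CDK repressors had a median of -0.17 with 2 at least 2-fold higher, and the repressors of CDK inhibitors had a median of -0.45 with 2 at least 2-fold lower; the summed level without miR-16 turned to -0.13 (added after seeing the data). Of all detected miRNAs, 79.3% were later in ANGPTL1 cells without normalization. The share of them past 2-fold was not computed for that setting, so its counts past 2-fold cannot be set against the whole card. A 1.5-fold threshold counted 2 members. A limit of cycle 32 left 4 members, with a median of -0.14. The median was 0.21 with miR-15a, miR-16 or miR-424 left out, -0.14 with miR-15b, miR-497 or miR-503 left out and -0.02 without miR-195, so its sign rests on single members. The number of cyclin and CDK repressors at least 2-fold higher was 1 with a limit of 32, and 5 with a limit of 38 or 40, since fewer or more miRNAs were then counted. A miRNA at cycle 40 in either sample, such as miR-34b, was left out at every limit. The shares over all detected miRNAs were not computed at these limits. The global median, RNU48 recomputed from the cycles and the authors' fold change table moved no member's ratio by more than 0.01. These settings restate the same ratios or move them jointly, so they test little. No paired analysis was possible because there is 1 sample per line.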
